A study of Mus musculus with 12 samples.

Results

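The genes of oxidative phosphorylation were examined in mouse lung RNA sequencing. They were taken from the deposited gene table as rows with a protein-coding transcript whose symbol starts with Nduf (a, b, c, s or v), Uqcr, Cox4 to Cox8, Atp5 or mt-, or is Sdha, Sdhb, Sdhc or Sdhd. The rule found 108 of 38349 genes, 95 in the nucleus and 13 on the mitochondrial chromosome, and no symbol occurred more than once. The transcript type column lists every type a gene has, and a gene was kept where protein coding was among them. Protein coding was the sole type for 36 of the 108.

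The 12 libraries came from whole lung of wild-type mice, 3 each from a Control group, an ALI group, in which hypoxia and LPS (lipopolysaccharide, from bacterial cell walls) had injured the lung, and MSC and tpMSC groups, which the study describes as treated. The labels do not expand MSC and tpMSC, and strain, age, doses, times and the source of the cells are not known from the sources used. Whether the libraries of a group come from different animals is not stated, so the p-values reflect a spread between libraries that may be only technical.

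Oxidative phosphorylation is the process by which mitochondria make ATP from the oxidation of NADH and succinate. Complexes I, II, III and IV pass electrons along the inner membrane to oxygen, complexes I, III and IV pump protons as they do so, and complex V, the ATP synthase, uses the returning protons to make ATP. The mitochondrial chromosome encodes a few core subunits of complexes I, III, IV and V, and all of complex II and most other subunits come from nuclear genes. Several complex IV subunits exist in a widely used form and a form restricted to certain tissues, and the lung, with its high oxygen supply, is known to use the restricted form Cox4i2.

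The libraries held 53083002 to 70209229 counts. The lung markers Sftpc, Ager, Scgb1a1 and Pecam1 were at 78.0 FPKM (fragments per kilobase of transcript, scaled to library size) or more in every library. Cell-type markers differed between Control and ALI. The summed level of 12 neutrophil genes was 152 to 240.7 FPKM in Control and 3843 to 4324 FPKM in ALI, that of 12 alveolar macrophage genes was 388.9 to 469.5 and 85.39 to 99.16 FPKM, and that of 10 endothelial genes was 1143 to 1178 and 558.2 to 618.1 FPKM. For 8 fibroblast genes it was 1657 to 1755 and 362.8 to 533.6 FPKM. For 6 club and secretory genes it was 17430 to 26220 and 8863 to 9867 FPKM. For 10 alveolar type 2 genes it was 14270 to 15400 and 7585 to 11240 FPKM, and for 8 alveolar type 1 genes 2035 to 2093 and 1197 to 1472 FPKM. For 5 erythroid genes it was 7703 to 15140 and 2665 to 3177 FPKM, and for 6 T cell genes 16.6 to 22.79 and 13.6 to 14.69 FPKM. The sums of the ciliated, B cell, and smooth muscle and pericyte genes overlapped. MSC replicate 3 stood apart from its group, with 72.8 FPKM of the alveolar macrophage genes against 341.5 and 846 FPKM. In whole lung, fewer cells of a type and less RNA per cell cannot be told apart, and the part of these cell-type differences in the results below was not tested.

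RefSeq promoter windows, the 250 bases before the annotated start, were found for 63 of the 95 nuclear genes (GRCm38.p6). The motifs were searched on both strands, and the capitals mark matches to ACGTG or to its variant GCGTG, which are cores of hypoxia response elements, or to the ETS factor core CCGGAAG. The windows shown belong to the nuclear members with a window and the largest falls in ALI (Cox8b, Cox7a1 and Cox6b2), and to Atp5pb, the nuclear member with the smallest p.
Cox8b, chr7:140900447-140900696, minus strand: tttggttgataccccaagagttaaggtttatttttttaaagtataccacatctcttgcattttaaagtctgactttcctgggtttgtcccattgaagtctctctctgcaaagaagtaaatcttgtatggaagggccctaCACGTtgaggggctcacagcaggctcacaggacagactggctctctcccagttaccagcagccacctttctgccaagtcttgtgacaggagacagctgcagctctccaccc
Cox7a1, chr7:30183921-30184170, plus strand: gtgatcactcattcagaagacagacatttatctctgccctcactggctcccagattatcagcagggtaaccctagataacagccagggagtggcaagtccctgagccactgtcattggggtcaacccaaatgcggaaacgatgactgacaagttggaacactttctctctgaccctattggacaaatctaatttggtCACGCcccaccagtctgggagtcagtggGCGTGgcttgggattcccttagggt
Cox6b2, chr7:4753095-4753344, minus strand: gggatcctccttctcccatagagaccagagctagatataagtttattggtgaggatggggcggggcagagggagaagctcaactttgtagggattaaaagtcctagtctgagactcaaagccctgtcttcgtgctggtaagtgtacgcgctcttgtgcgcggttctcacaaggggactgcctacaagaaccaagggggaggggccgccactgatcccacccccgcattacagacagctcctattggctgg
Atp5pb, chr3:105959264-105959513, minus strand: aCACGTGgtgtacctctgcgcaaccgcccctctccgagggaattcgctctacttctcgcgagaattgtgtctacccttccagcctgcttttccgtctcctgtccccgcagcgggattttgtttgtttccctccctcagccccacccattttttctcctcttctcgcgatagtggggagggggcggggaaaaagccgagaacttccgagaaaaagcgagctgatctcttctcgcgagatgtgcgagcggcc
The Cox6b2 window held none of the motifs, and the CACGTG of the Atp5pb window holds ACGTG on both strands. ACGTG was present in 11 of the 63 windows (17.5%) and in 18.5% of the windows of all 27025 genes. GCGTG was present in 27 (42.9%) against 30.9%, and CCGGAAG in 10 (15.9%) against 7.83%. The RefSeq start lies inside the GENCODE gene span given below for Atp5pb and Cox7a1, so the Atp5pb window falls wholly and the Cox7a1 window partly within that span. These matches describe letters in the windows and are not shown to be binding sites.

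The first comparison asked what the injury changed in these genes. In ALI lungs 6 mitochondrially encoded transcripts fell, 5 of them of complex I. In complex IV, 5 tissue-restricted or inducible forms fell to between 0.244 and 0.672 of their Control level. Most nuclear subunits did not pass the test. Of the 13 mitochondrially encoded genes 6 fell and 0 rose, and of the 94 nuclear genes tested 9 fell and 6 rose. Genes passed, and are said to have risen or fallen, at an adjusted p under 0.05 (Benjamini-Hochberg) in edgeR's quasi-likelihood test fitted over all genes, which called 39.8% of the 22915 genes tested, 20.2% as higher and 19.6% as lower. Nuclear members were called in 16.0% of cases, below that background. Their median absolute log2 fold change was 0.15, against 0.44 over all genes, with a median SE of 0.11 against 0.19. In normalised counts, ALI lay wholly above Control for 15 of the 94 and wholly below for 18, against 27.5% and 28.5% of all genes, and 55.9% either way. Ndufb11b, a copy of Ndufb11, had 0 counts in all libraries and was not tested.

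The summed level of the 13 mitochondrially encoded genes was 27110, 25850 and 28560 FPKM in the Control libraries, 21020, 23510 and 20960 in ALI, 26500, 23190 and 21900 in MSC, and 26320, 22170 and 24370 in tpMSC. The ALI libraries all lay below the Control libraries, while the MSC and tpMSC libraries each overlapped both. The mean was 19.7% lower in ALI than in Control (21830 ± 1450 against 27170 ± 1350 FPKM, SD, n = 3 each). In the summed TMM-normalised counts of these genes the difference was -16.5%. These genes took 2.943% ± 0.143 of all counts in Control and 2.334% ± 0.145 in ALI. The summed level of the nuclear members was 2663, 2845 and 3079 FPKM in Control and 2887, 2819 and 2615 in ALI. These overlapped, and the means differed by -3.09%, a direction that turned to 5.03% in the summed TMM-normalised counts. The mitochondrial ribosomal RNAs mt-Rnr1 and mt-Rnr2, which the rule leaves out, differed between ALI and Control by -3.0% and 3.78% and overlapped, in libraries selected for poly(A) RNA.

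**Figure D1:**
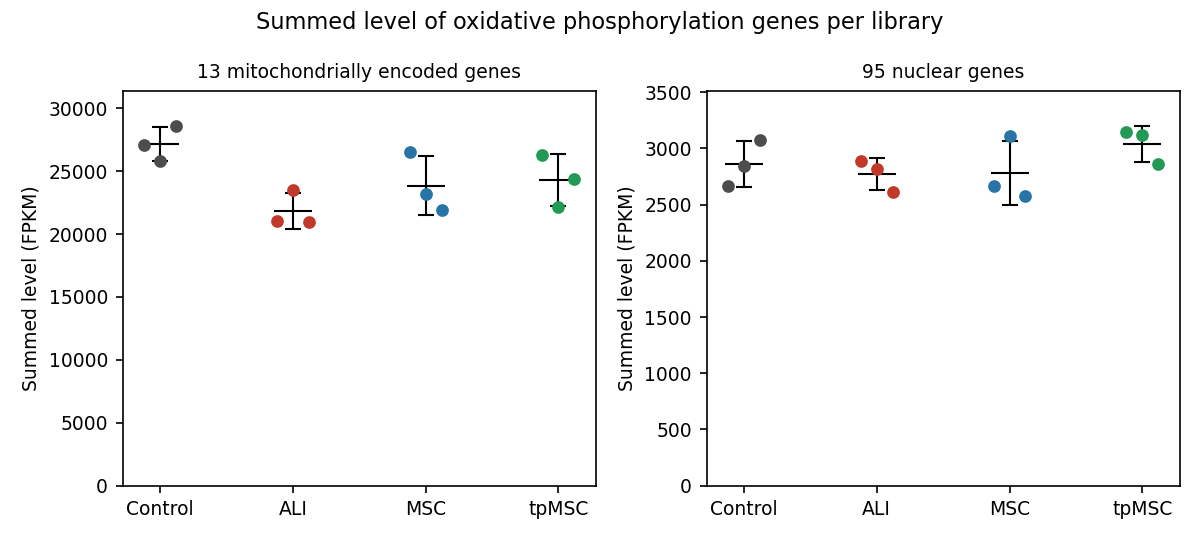
Summed level in FPKM per library of the 13 mitochondrially encoded genes (left) and the 95 nuclear genes (right), with the group mean (line) and SD (bar, n = 3). On the left the 3 ALI libraries (20960 to 23510 FPKM) lie below the 3 Control libraries (25850 to 28560), and on the right the groups overlap.

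Among the mitochondrially encoded genes, 5 of the 7 complex I genes and 1 of the 6 others fell. mt-Nd2, a proton-pumping core subunit of complex I, stood at 1421, 1403 and 1580 FPKM in Control, 907.2, 893.7 and 893.3 in ALI, 1255, 948.7 and 974.6 in MSC, and 1286, 1066 and 1252 in tpMSC. The ALI libraries lay below those of each other group. Its log2 fold change in ALI was -0.65 ± 0.11 (SE), the largest of the 13 (adjusted p = 0.000565). mt-Nd4, another pumping subunit, measured 1643, 1530 and 1679 FPKM in Control and 1100, 1170 and 1188 in ALI, a log2 fold change of -0.43 ± 0.11 (adjusted p = 0.00714). mt-Nd1, which lies at the quinone-binding end of the membrane arm, measured 2333, 2320 and 2495 against 1645, 1804 and 1682 FPKM, with -0.42 ± 0.10 (adjusted p = 0.00501). Neither gene's Control and ALI libraries overlapped. mt-Nd3, a small core subunit, fell by 0.41 ± 0.11 on the log2 scale (adjusted p = 0.0104). mt-Nd6, the one gene of the 13 on the light strand, fell by 0.35 ± 0.11 (adjusted p = 0.0254).

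The remaining complex I genes did not pass. mt-Nd4l had a log2 fold change of -0.29 ± 0.12 (adjusted p = 0.0789), and mt-Nd5 had -0.07 ± 0.12, with 846.6, 810.7 and 910.3 FPKM in Control and 747.8, 762.1 and 836.7 in ALI. Outside complex I, mt-Co2, which accepts electrons from cytochrome c in complex IV, fell by 0.30 ± 0.10 (adjusted p = 0.0240). mt-Cytb of complex III had -0.23 ± 0.10 (adjusted p = 0.0879), the complex IV genes mt-Co1 and mt-Co3 each -0.20, and the complex V genes mt-Atp6 and mt-Atp8 had -0.21 ± 0.10 and -0.05 ± 0.10. The fitted difference was thus below 0 for all 13, and in normalised counts 9 of them had every ALI library below every Control library, as had 28.5% of all genes. The median was -0.29, with -0.41 over complex I and -0.20 over the others. Over the 21 alternative settings the median of the 13 lay between -0.36 and -0.24. In limma on log2(FPKM + 1) only mt-Nd2 and mt-Nd3 passed. The mt-Co2 call was also lost without Control replicate 1 or 3 or ALI replicate 1 or 3, and the mt-Nd6 call without Control replicate 1 or 3 or ALI replicate 1 or 2, with an adjusted p of up to 0.231 and 0.0890 over all settings.

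Some of these genes share bases, so that reads over them cannot be given to one gene. mt-Atp8 and mt-Atp6 overlap by 43 bases at chrM:7927-7969 (GRCm38, plus strand), which is 21.1% of mt-Atp8 and runs from the start codon of mt-Atp6 to the stop codon of mt-Atp8.
Bases shared by mt-Atp8 and mt-Atp6: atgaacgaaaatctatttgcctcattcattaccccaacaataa
mt-Nd4l and mt-Nd4 share 7 bases, and mt-Nd5 and mt-Nd6 share 14 bases on opposite strands. The library protocol marks the strand, but the strand setting used in counting is not stated, so the values of mt-Nd6 and of mt-Nd5 near their common end are uncertain.

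**Figure D2:**
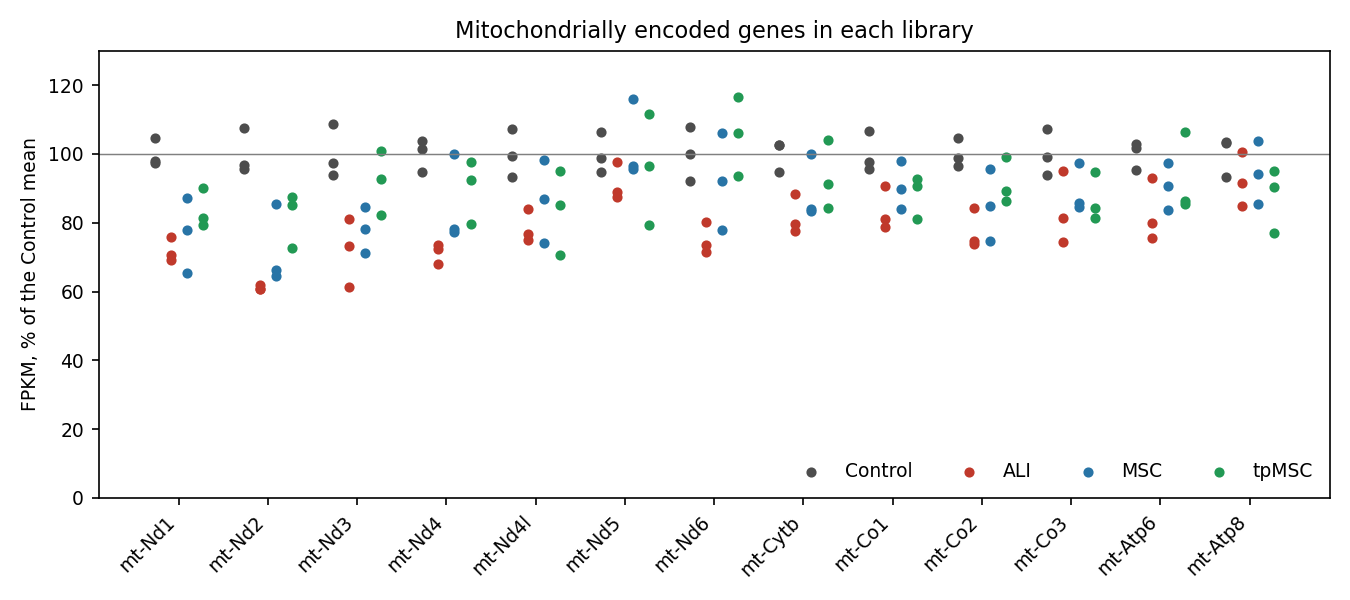
Level of each mitochondrially encoded gene in each library, as a percentage of the mean FPKM of the 3 Control libraries. The ALI libraries of mt-Nd2 (893.3 to 907.2 FPKM) lie farthest below Control, and mt-Nd5 and mt-Atp8 lie close to it.

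In nuclear complex I, 2 of 37 subunits tested fell and 0 rose, so 5.41% were called. The share called was 25.0% among the complex I assembly factors, 25.0% in complex II, 12.5% in III, 31.6% in IV and 16.7% in V. Each of these lay below the 39.8% of all genes. Ndufs7, a core subunit that carries the last iron-sulfur cluster before the quinone, measured 19.89, 22.74 and 21.54 FPKM in Control and 17.65, 16.27 and 15.51 in ALI. The groups did not overlap, and the log2 fold change was -0.32 ± 0.08 (adjusted p = 0.00732). Ndufb3, an accessory subunit of the membrane arm, fell by 0.36 ± 0.10 (adjusted p = 0.0164), from 45.61 ± 2.79 to 34.06 ± 3.17 FPKM (SD, n = 3). The core subunits Ndufs1, Ndufs3, Ndufs8, Ndufv1 and Ndufv2, also encoded in the nucleus, had log2 fold changes between -0.12 and 0.16. The accessory subunit Ndufv3 was close to the threshold, at -0.23 ± 0.09 (adjusted p = 0.0508). The Ndufb3 call was lost without Control replicate 2 or 3 or ALI replicate 3 (adjusted p of up to 0.0736).

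Of the 8 Ndufaf assembly factors of complex I, which build the complex and are not part of it, 1 fell and 1 rose. Ndufaf3, which helps to assemble the quinone-reducing module, measured 9.0, 9.23 and 11.02 FPKM in Control and 7.84, 6.78 and 6.24 in ALI (log2 fold change -0.42 ± 0.12, adjusted p = 0.0157). Ndufaf4, its binding partner in assembly, moved the other way, from 4.73, 4.6 and 4.35 to 5.75, 5.36 and 5.25 FPKM (0.32 ± 0.08, adjusted p = 0.00732). The groups did not overlap for either gene. The Ndufaf3 call was lost without Control replicate 3 or ALI replicate 3 (adjusted p of up to 0.0700).

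Complex II, which is also the succinate dehydrogenase of the citric acid cycle, had 1 of 4 subunits fall. Sdha, the flavoprotein that oxidises succinate, went from 44.28 ± 1.96 to 36.83 ± 1.15 FPKM, a log2 fold change of -0.20 ± 0.06 (adjusted p = 0.0212). The iron-sulfur subunit Sdhb had 0.25 ± 0.09 (adjusted p = 0.0552), and the membrane anchors Sdhc and Sdhd had 0.18 and 0.11. The Sdha call was lost without Control replicate 3 or ALI replicate 2 or 3 (adjusted p of up to 0.0840). In complex III, 1 of 8 genes rose and 0 fell. That gene was Uqcrq, a small accessory subunit, at 16.17 ± 2.13 FPKM in Control and 20.63 ± 1.81 in ALI (0.41 ± 0.13, adjusted p = 0.0218), and its call was lost without Control replicate 1 or 2 or ALI replicate 1 or 2 (adjusted p of up to 0.0934). The catalytic Rieske protein gene Uqcrfs1 had 0.14 ± 0.10.

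Complex IV held the largest fold changes of any complex, with 5 of 19 nuclear members lower (26.3%) and 1 higher (5.26%). Over all genes 19.6% were lower and 20.2% higher. All 5 are forms restricted to certain tissues or, for Ndufa4l2, a hypoxia-induced relative of a widely used subunit. None of their widely used counterparts passed the test. Cox4i2 (chr2:152754173-152765037), the form of subunit IV that is known in mouse to be needed for oxygen sensing by lung artery muscle and carotid body cells, measured 27.17, 34.86 and 32.26 FPKM in Control, 14.58, 18.06 and 13.3 in ALI, 23.89, 21.72 and 21.25 in MSC, and 32.67, 35.67 and 24.82 in tpMSC. The ALI libraries lay below all others, and the log2 fold change was -0.98 ± 0.15 (adjusted p = 0.000372). Its widely used counterpart Cox4i1 measured 70.28 ± 6.15 FPKM in Control and 65.63 ± 3.84 in ALI (-0.04 ± 0.12). Cox4i2 made up 29.35%, 33.81% and 29.47% of the FPKM of the pair in Control and 17.23%, 22.23% and 17.28% in ALI, with no overlap. FPKM depend on the length assigned to each gene, which was not checked, so this share need not hold for reads or transcripts. In Control replicate 1 the raw counts were 1503 for Cox4i2 and 7114 for Cox4i1, and in ALI replicate 1 they were 824 and 7779.

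Ndufa4l2 (chr10:127514967-127517154), a hypoxia-induced relative of the complex IV subunit Ndufa4, measured 12.49, 13.35 and 13.48 FPKM in Control, 8.73, 7.37 and 9.23 in ALI, 12.67, 13.97 and 10.51 in MSC, and 18.19, 21.43 and 17.24 in tpMSC. The tpMSC libraries were above all others and the ALI libraries below all others. The log2 fold change in ALI was -0.57 ± 0.13 (adjusted p = 0.00397), against -0.04 ± 0.11 for Ndufa4. Cox6b2 (chr7:4751792-4753094), known as the testis form of subunit VIb, measured 8.81, 9.57 and 7.29 FPKM in Control and 3.31, 2.51 and 2.42 in ALI, with no overlap (-1.56 ± 0.24, adjusted p = 0.000367). Its counterpart Cox6b1 measured 82.24 ± 7.58 and 85.33 ± 7.01 FPKM (0.11 ± 0.09).

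The heart and skeletal muscle forms were low in all groups. Cox8b (chr7:140898945-140900446) measured 2.23, 1.94 and 2.94 FPKM in Control and 0.56, 0.82 and 0.22 in ALI (log2 fold change -2.04 ± 0.51, adjusted p = 0.00731). Cox7a1 (chr7:30184144-30186078) measured 1.35, 2.49 and 2.98 FPKM in Control and 0.57, 0.64 and 0.79 in ALI (-1.67 ± 0.45, adjusted p = 0.0107). Neither gene's groups overlapped. Their counterparts Cox8a and Cox7a2 had log2 fold changes of 0.08 ± 0.13 and 0.08 ± 0.10. Cox6a2, a further muscle form, had 0.14 ± 0.18. The calls on these 5 genes passed in all 21 alternative settings, with an adjusted p of at most 0.0424.

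Markers of cells in which these forms are known to be high were set beside Cox4i2, Ndufa4l2, Cox7a1 and Cox8b, and none beside Cox6b2. Cox4i2 and Ndufa4l2 are known as markers of pericytes, the contractile cells of capillary walls. The summed level of 11 pericyte genes, a list chosen after the data were seen, was 182.3 to 190.7 FPKM in Control and 138.9 to 167.4 in ALI. Of the 11, 6 fell and 1 rose, beside 19.6% and 20.2% of all genes. The summed level of 6 smooth muscle and pericyte genes was 87.23 to 106.9 FPKM in Control and 64.06 to 99.8 in ALI, and 1 fell. For Cox7a1 and Cox8b, the summed level of 11 heart muscle genes was 13.69 to 40.18 FPKM in Control and 14.88 to 20.44 in ALI, with Myl7, Nppa, Myl2 and Sln at 0 in at least 1 library, and 0 of the 9 tested passed in ALI against Control. For 8 skeletal muscle genes the summed level was 2.34 to 4.5 FPKM in Control and 2.15 to 2.85 in ALI, with Acta1, Myh1, Myh2 and Myh4 at 0 in at least 1 library. Of the 6 tested 2 fell, Tnnt3, a fast troponin T (-1.41, adjusted p = 0.00387), and Myh1, a myosin heavy chain listed at 0 in the 3 ALI libraries and at no more than 0.04 FPKM in Control. The summed level of 8 adipose genes was 3.45 to 22.83 FPKM in Control and 3.11 to 11.14 in ALI. Of these, Adipoq, Ucp1 and Lep were at 0 in at least 1 library. The adipose sum was highest in replicate 3 in Control and ALI, and in replicate 1 in MSC. The heart muscle sum, Cox7a1 and Cox8b were all highest in replicate 3 in Control. In MSC all were highest in replicate 1 and lowest in replicate 3. In ALI, replicate 3 was highest for the heart muscle sum and Cox7a1 and lowest for Cox8b. The part of muscle content in these values was not tested.

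**Figure D3:**
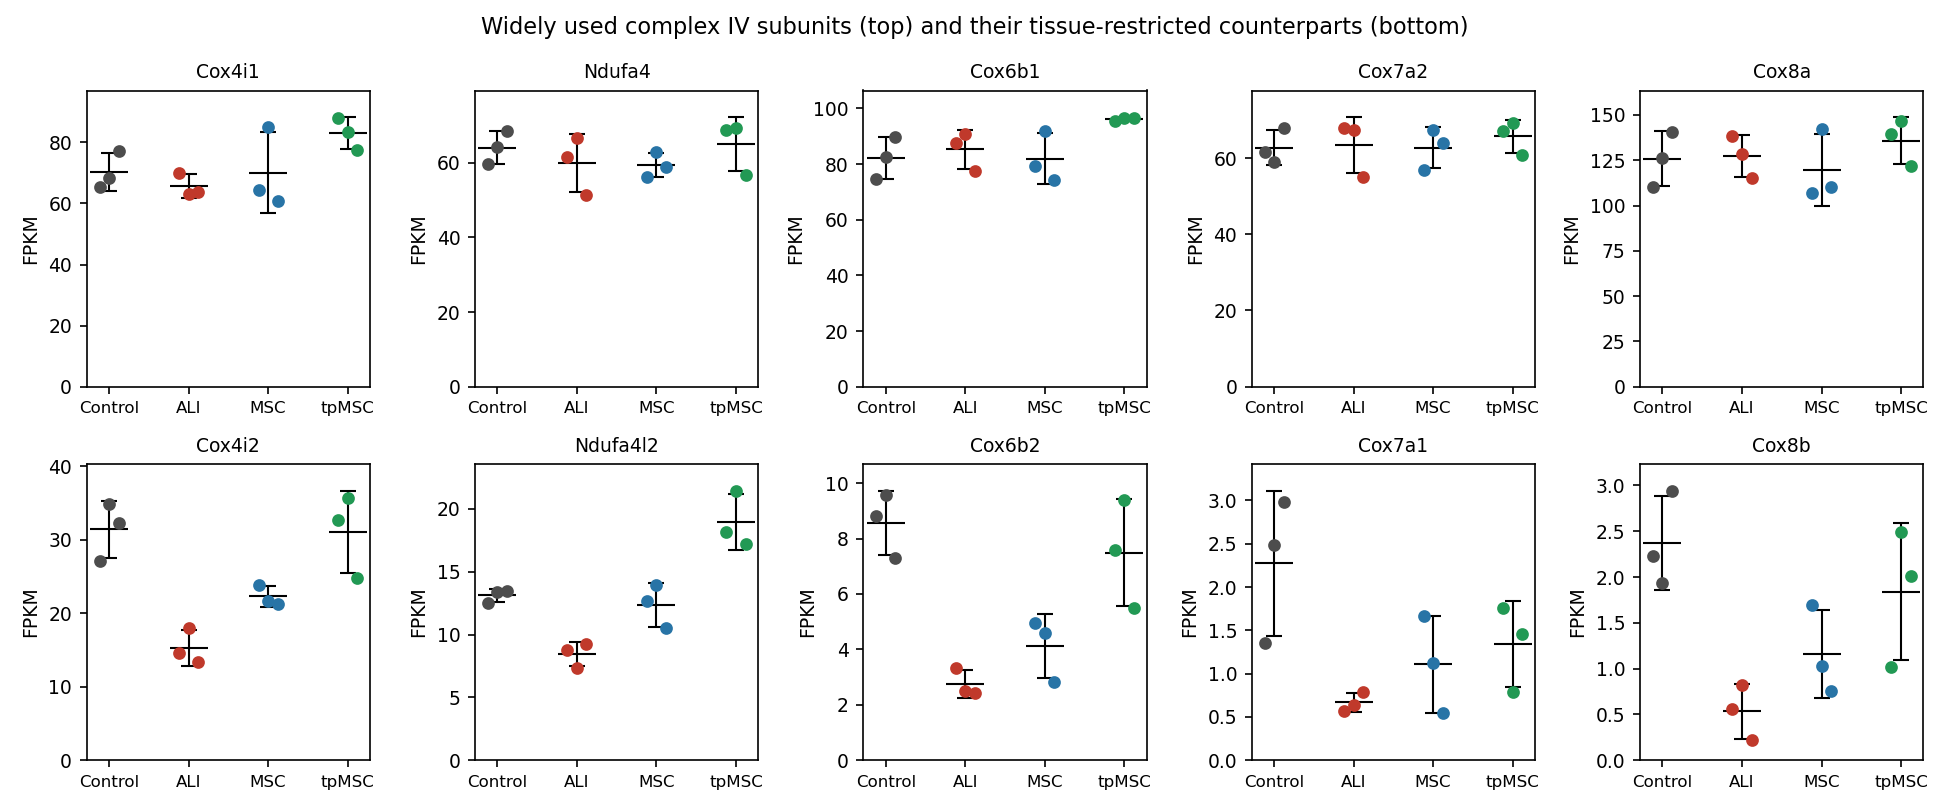
Level in FPKM per library of 5 widely used complex IV subunits (top) and their tissue-restricted or, for Ndufa4l2, hypoxia-induced counterparts (bottom). The group mean (line) and SD (bar, n = 3) are shown. In each lower panel the ALI libraries lie below the Control libraries, as for Cox4i2 (13.3 to 18.06 against 27.17 to 34.86 FPKM), and in each upper panel the 2 groups overlap. The lower panels are the 5 forms called as lower in ALI, and the muscle form Cox6a2, whose groups overlapped, is not shown.

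The 1 complex IV member that rose, Cox5b-ps, is named as a pseudogene of Cox5b and listed with a protein-coding transcript. It went from 4.137 ± 0.398 to 5.883 ± 0.607 FPKM (0.57 ± 0.17, adjusted p = 0.0188), and Cox5b itself from 24.67 ± 2.63 to 26.89 ± 1.80 (0.19 ± 0.12). Reads may be shared between such copies, so the value is uncertain, and its call was lost without Control replicate 1 or ALI replicate 1 or 3 (adjusted p of up to 0.0783).

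In complex V, 3 of 18 nuclear genes rose and 0 fell, and 14 of the 18 had a fitted value above 0 (median 0.14). Atp5pb (chr3:105942698-105960099), which encodes subunit b of the stalk that holds the catalytic head in place, measured 35.78, 35.55 and 38.38 FPKM in Control, 54.24, 54.18 and 49.68 in ALI, 42.05, 47.59 and 41.45 in MSC, and 42.72, 41.46 and 41.73 in tpMSC. ALI was above all other libraries, and Control below. The log2 fold change in ALI was 0.59 ± 0.07 (adjusted p = 5.8e-05). Atp5f1b, the catalytic beta subunit, rose from 98.67 ± 7.24 to 119.3 ± 7.64 FPKM (0.34 ± 0.09, adjusted p = 0.0135). Atp5mc1, 1 of the 3 genes for the same mature subunit c, measured 1.92, 1.76 and 3.27 FPKM in Control and 4.64, 5.04 and 3.16 in ALI (0.95 ± 0.28, adjusted p = 0.0172), and the groups overlapped. It made up 3.087% ± 0.877 of the summed FPKM of the 3 genes in Control and 5.397% ± 1.11 in ALI. This share depends on the length assigned to each gene, which was not checked. Raw counts of Atp5mc1, Atp5mc2 and Atp5mc3 were 663, 3518 and 5531 in Control replicate 1, and 1632, 4277 and 6369 in ALI replicate 1. Atp5mc2 and Atp5mc3 had log2 fold changes of 0.07 ± 0.12 and 0.16 ± 0.10. The Atp5f1b call was lost without Control replicate 1 or ALI replicate 1, and the Atp5mc1 call without replicate 1 or 2 of either group (adjusted p of up to 0.0685 and 0.0733). Atp5if1, the inhibitor of the enzyme, had -0.11 ± 0.10.

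**Figure D4:**
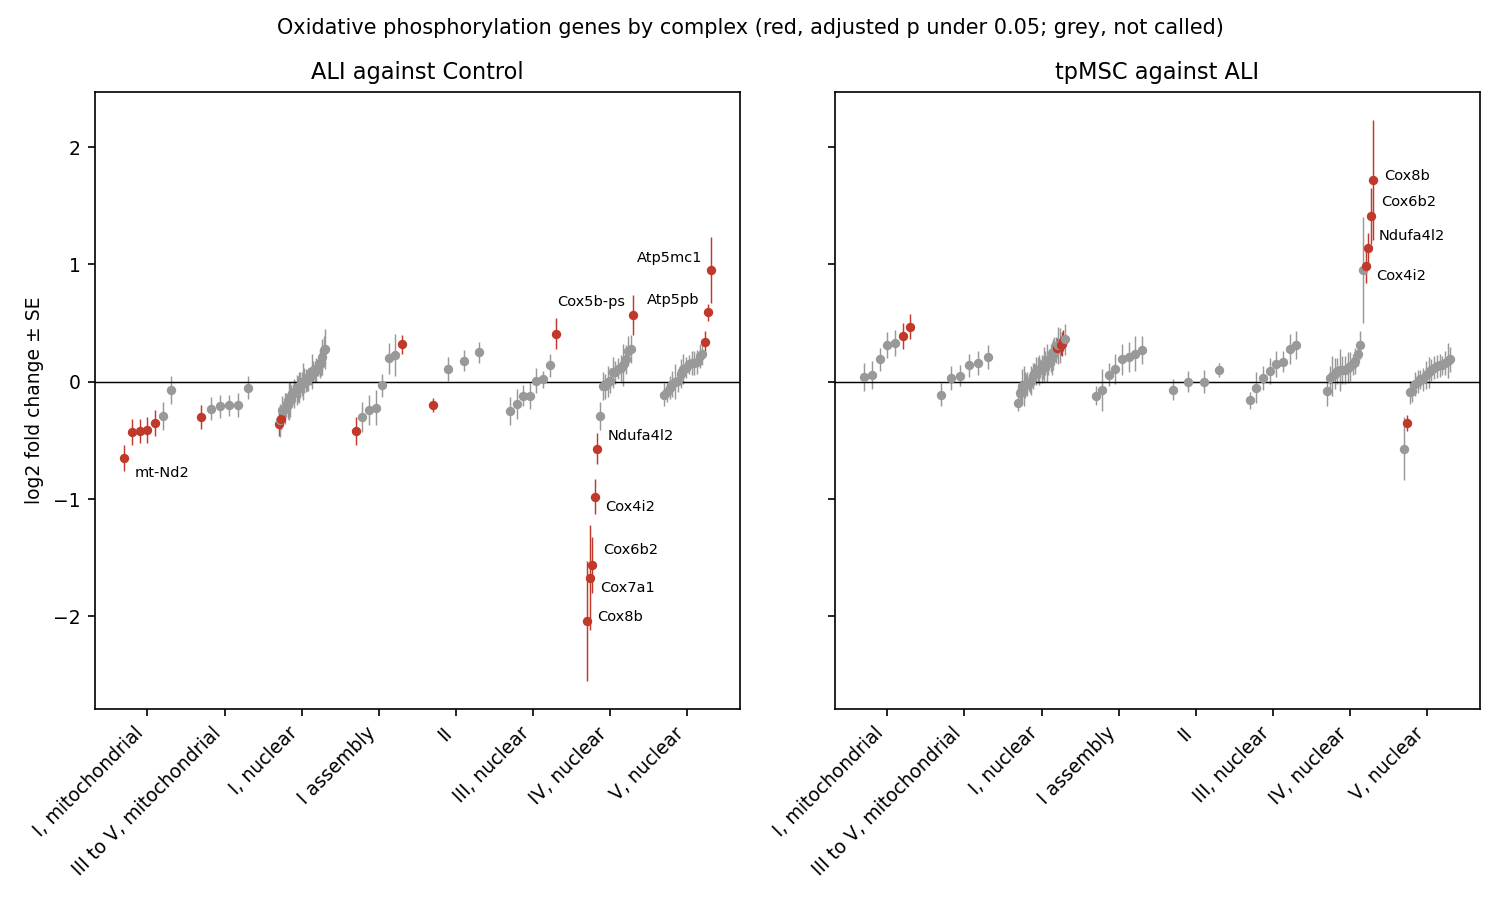
Log2 fold change ± SE of every tested oxidative phosphorylation gene in ALI against Control (left) and tpMSC against ALI (right), by complex, with genes called at an adjusted p under 0.05 in red. Genes with a called change above 0.5 in size are named. On the left the tissue-restricted complex IV subunits reach -2.04 and most other nuclear genes lie near 0.

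The next question was what the MSC treatment changed in injured lungs. Among nuclear members Ndufa4l2 rose (log2 fold change 0.50 ± 0.13, adjusted p = 0.0305) and Atp5pb fell (-0.32 ± 0.07, adjusted p = 0.0149) in MSC against ALI, and no other nuclear member of the 94 tested passed. edgeR called 10.2% of all genes here, 5.03% as higher and 5.21% as lower. Of the 13 mitochondrially encoded genes 0 passed in edgeR and 0 in DESeq2, and mt-Nd2 had 0.19 ± 0.11. Over all 107 members 5 had an unadjusted p under 0.05, beside 24.6% of all genes, and DESeq2 called 4, beside 18.3% of the 19745 genes to which it gave an adjusted p. Cox4i2 had 0.49 ± 0.15 (adjusted p = 0.0625), with MSC and ALI libraries that did not overlap, and Cox6b2 had 0.53 ± 0.24 (adjusted p = 0.202). Leaving out ALI replicate 1, ALI replicate 2 or MSC replicate 1 ended both calls, as did a fit of the 6 libraries compared (adjusted p = 0.103 for Ndufa4l2 and 0.0879 for Atp5pb), and leaving out MSC replicate 2 also ended that on Ndufa4l2. Without MSC replicate 3 both counts stayed at 2 and 0. The summed level of 6 smooth muscle and pericyte genes was 102.6 to 187.2 FPKM in MSC, above the ALI libraries. That of 11 pericyte genes was 146.9 to 170.1 FPKM and overlapped ALI.

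In tpMSC against ALI, 4 restricted or inducible complex IV forms and 4 complex I subunits rose. Of 94 nuclear members 8 rose and 1 fell, beside 23.1% of all genes called, 11.6% as higher and 11.5% as lower. Ndufa4l2 was 2.2 times its ALI level (log2 fold change 1.14 ± 0.13, adjusted p = 0.000163) and Cox4i2 was 1.99 times (0.99 ± 0.15, adjusted p = 0.000901). Cox6b2, at 7.59, 9.38 and 5.5 FPKM in tpMSC, was 2.65 times (1.41 ± 0.24, adjusted p = 0.00180), and Cox8b, at 1.02, 2.49 and 2.01 FPKM, was 3.29 times (1.72 ± 0.51, adjusted p = 0.0301). None of the 4 overlapped ALI. In normalised counts, tpMSC lay wholly above ALI for 21 of the 94 nuclear members and wholly below for 5, against 20.1% and 20.3% of all genes, and 40.5% either way. Cox7a1, at 1.76, 0.79 and 1.46 FPKM, had 0.95 ± 0.45 (adjusted p = 0.152), and Cox6a2 had 0.10 ± 0.18. The Cox8b call was lost without ALI replicate 1 or 3 or tpMSC replicate 2 or 3, and in a fit of the 6 libraries alone (adjusted p of up to 0.111).

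The complex I subunits Ndufv3 (0.35 ± 0.09, adjusted p = 0.0124), Ndufb3 (0.32 ± 0.10, adjusted p = 0.0455), Ndufb10 (0.31 ± 0.08, adjusted p = 0.0164) and Ndufs7 (0.29 ± 0.08, adjusted p = 0.0221) rose in tpMSC against ALI. Each of these 4 calls was lost in 2 to 11 of the 21 alternatives, those without ALI replicate 3 among them (adjusted p of up to 0.171). Atp5pb fell by 0.35 ± 0.07 (adjusted p = 0.00391). Of the mitochondrially encoded genes 2 rose, mt-Nd2 (0.39 ± 0.11, adjusted p = 0.0208) and mt-Nd6 (0.47 ± 0.11, adjusted p = 0.0114), while mt-Nd3 and mt-Nd4 had 0.33 and 0.31 (adjusted p = 0.0502 and 0.0551). The mt-Nd2 call was lost without ALI replicate 1 or 3 or tpMSC replicate 1, and in limma (adjusted p of up to 0.117), and the mt-Nd6 call in limma on log2(FPKM + 1) (adjusted p = 0.0505). The summed level of the 6 smooth muscle and pericyte genes was 180.8 to 210.4 FPKM in tpMSC and that of the 11 pericyte genes 170.4 to 178.2, both above ALI. Of these genes 5 of the 6 and 5 of the 11 rose, beside 11.6% of all genes. The heart muscle sum was 18.58 to 70.14 FPKM in tpMSC, highest in replicate 3, where neither Cox8b nor Cox7a1 was highest, and 2 of the 9 tested rose. The skeletal muscle sum was 3.0 to 5.33 FPKM, and Tnnt3 (1.33, adjusted p = 0.0106) and Myh1 rose. The adipose sum was 7.35 to 32.57 FPKM, also highest in replicate 3. This comparison and that of ALI with Control share the ALI libraries, so a chance deviation of those libraries moves the 2 in opposite directions.

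Against Control, MSC lungs had 1 nuclear member higher and 3 lower, and tpMSC lungs 3 higher and 0 lower, beside 18.7% of all genes called in MSC (10.7% higher, 8% lower) and 15.9% in tpMSC (9.1% higher, 6.79% lower). Both comparisons use the same Control libraries. In MSC, Cox6b2 (log2 fold change -1.04 ± 0.24, adjusted p = 0.0117), Cox4i2 (-0.49 ± 0.15, adjusted p = 0.0435) and the assembly factor Ndufaf8 (-0.44 ± 0.13, adjusted p = 0.0339) were lower, and Atp5pb was higher (0.27 ± 0.07, adjusted p = 0.0209). In tpMSC, Ndufa4l2 (0.57 ± 0.13, adjusted p = 0.0127), Atp5pb (0.23 ± 0.07, adjusted p = 0.0420) and Cox5b-ps (0.61 ± 0.17, adjusted p = 0.0302) were higher, while Cox4i2 and Cox6b2 had 0.02 ± 0.15 and -0.16 ± 0.24. mt-Nd1, mt-Nd2 and mt-Nd3 were lower in MSC than in Control (-0.37, -0.46 and -0.35, adjusted p = 0.0218, 0.0123 and 0.0463), and 0 of the 13 passed in tpMSC, where these genes had -0.22, -0.25 and -0.09. Of these 10 calls, that on Cox6b2 passed in all 21 alternatives and the others were lost in 2 to 13, with an adjusted p of up to 0.261. Without MSC replicate 3, the nuclear and mitochondrial counts in MSC were 2 and 1 in place of 4 and 3.

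A direct test of tpMSC against MSC asked whether the treatments differed. In edgeR 0 of the 107 members passed, beside 0.0305% of all genes called (0.0175% higher, 0.0131% lower), and DESeq2 called 2, Ndufa4l2 and Cox6b2, both higher, beside 3.47% of the 19301 genes to which it gave an adjusted p and 1.15% as higher. At an unadjusted p under 0.05 there were 21 members, and all 21 were higher in tpMSC, beside 12.6% of all genes and 5.5% as higher. Ndufa4l2 was 0.64 higher (95% interval 0.39 to 0.89, adjusted p = 0.107), Cox6b2 0.88 (0.41 to 1.35, adjusted p = 0.172) and Cox4i2 0.50 (0.21 to 0.80, adjusted p = 0.201) on the log2 scale. These intervals take a normal quantile of the SE without adjustment, so they are narrower than the test itself would give. The tpMSC libraries lay wholly above the MSC libraries in normalised counts for 17 of the 94 nuclear members and wholly below for 0, where 7.16% of all genes lay wholly above, 7.05% wholly below and 14.2% either way. The fitted value was above 0 for 88 of the 94, with a median of 0.16 against -0.001 over all genes. By complex the median was 0.17 in complex I, 0.14 in III, 0.25 in IV and 0.12 in V, and 0.04 in complex II. This median lay between 0.11 (without MSC replicate 3) and 0.25 (without MSC replicate 2) over the alternatives. The summed nuclear level was 2665, 3109 and 2580 FPKM in MSC and 3143, 3116 and 2858 in tpMSC, and MSC replicate 2 overlapped the tpMSC libraries.

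**Figure D5:**
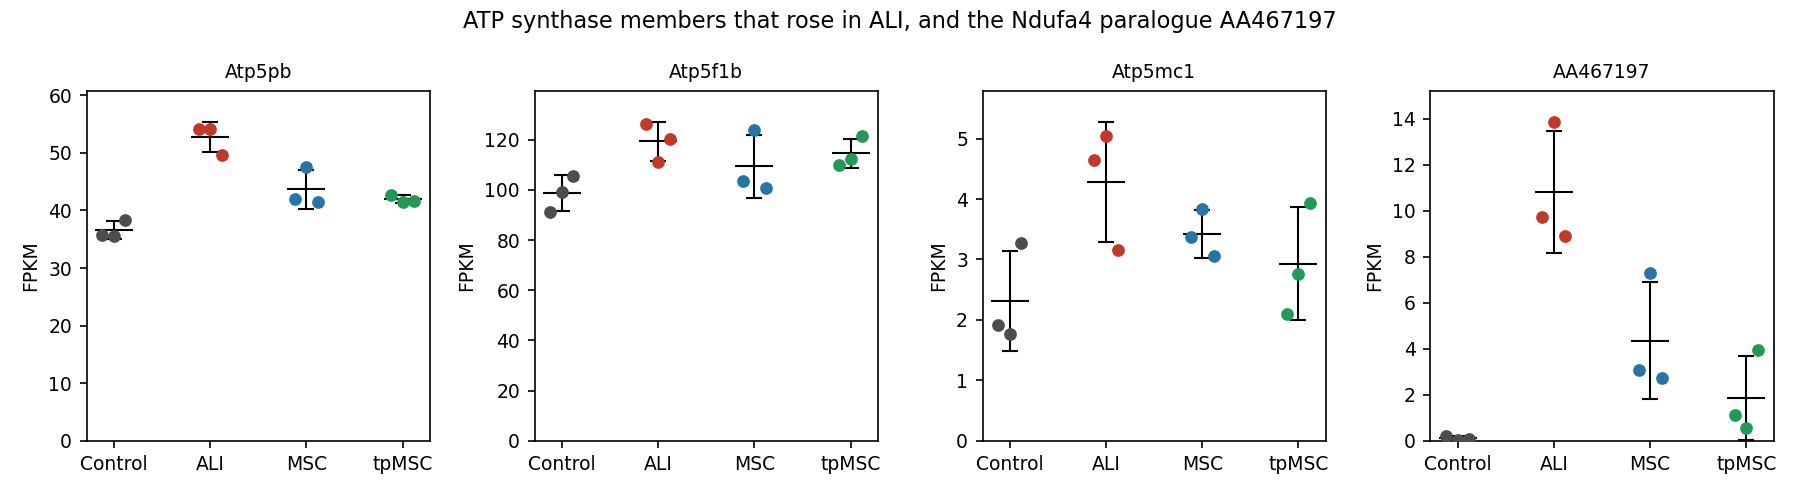
Level in FPKM per library of the 3 ATP synthase genes that rose in ALI and of AA467197, a paralogue of Ndufa4 outside the rule, with the group mean (line) and SD (bar, n = 3). The ALI libraries of Atp5pb (49.68 to 54.24 FPKM) lie above all others, and AA467197 goes from 0.04 to 0.22 FPKM in Control to 8.9 to 13.85 in ALI.

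Genes that act beside the complexes were followed through lists. AA467197, the mouse counterpart of human C15orf48 (NMES1), encodes a paralogue of Ndufa4 known to replace it in complex IV during inflammation. It measured 0.22, 0.04 and 0.07 FPKM in Control, 9.71, 13.85 and 8.9 in ALI, 3.08, 7.28 and 2.71 in MSC, and 1.12, 0.53 and 3.93 in tpMSC. ALI was above all other libraries, with a log2 fold change of 6.61 ± 0.84 against Control (adjusted p = 9.23e-05). In tpMSC against ALI it fell by 2.54 on the log2 scale (adjusted p = 0.0158), and in MSC against ALI the value was -1.36 (adjusted p = 0.206). The summed neutrophil level given above for Control and ALI was 521.8 to 1000 FPKM in MSC and 528.6 to 634.7 in tpMSC, and its part in these values was not tested.

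Of 11 brakes and hypoxia switches tested, 4 rose and 3 fell in ALI (63.6%), beside the 39.8% of all genes. Hif1a, the hypoxia-stabilised regulator, rose from 15.98 ± 0.789 to 56.23 ± 7.12 FPKM (adjusted p = 5.76e-06), and Pdk2, a kinase that shuts off pyruvate dehydrogenase, fell from 10.31 ± 0.551 to 4.32 ± 0.436 (adjusted p = 2.74e-05). Higd1b, a hypoxia-inducible-domain gene also known from pericytes, fell by 0.54 (adjusted p = 0.0149) and rose by 0.98 in tpMSC against ALI (adjusted p = 0.00105). Of 9 electron carriers and entry enzymes 4 rose and 2 fell (66.7%). Cycs, which encodes the cytochrome c that shuttles electrons from complex III to IV, rose from 15.83 ± 0.744 to 24.14 ± 1.36 FPKM (adjusted p = 3.94e-05), and Prodh, a proline-oxidising enzyme that feeds electrons to the quinone pool, fell by 0.92 on the log2 scale (adjusted p = 0.000280).

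Of 38 assembly factors outside the rule 1 rose and 4 fell (13.2%), among them the complex III factor Uqcc3 (-0.74, adjusted p = 0.000482), the complex IV factor Surf1 (-0.38, adjusted p = 0.00309) and the complex II factor Sdhaf4 (-0.64, adjusted p = 0.0135). Sco2, a copper chaperone of complex IV, rose by 0.99 (adjusted p = 0.0177). Coenzyme Q synthesis had 4 of 13 genes higher and 3 lower (53.8%), among them Pdss1, which makes the quinone's side chain (0.63, adjusted p = 0.00155), and Coq2, which attaches it to the ring (-0.29, adjusted p = 0.00228). Of 13 citric acid cycle genes 4 rose and 0 fell (30.8%), led by Mdh2 (0.45, adjusted p = 0.00175) and Dld (0.28, adjusted p = 0.00423). The ATP/ADP carrier gene Slc25a5 rose by 0.51 (adjusted p = 0.00312), and Ucp3, a relative of the brown fat uncoupler, fell from 1.477 ± 0.222 to 0.0733 ± 0.0551 FPKM (adjusted p = 0.00881).

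Of 17 genes that copy and read the mitochondrial chromosome 1 rose and 2 fell in ALI (17.6%). Polg2, the accessory subunit of the mitochondrial DNA polymerase, fell by 0.41 (adjusted p = 0.00733), and Tfb1m, a methyltransferase of mitochondrial ribosomal RNA, rose by 0.56 (adjusted p = 0.00976). Of 10 regulators of mitochondrial biogenesis 1 rose and 1 fell. Pprc1 rose by 1.09 (adjusted p = 0.000257) and Ppargc1a fell by 0.91 (adjusted p = 0.00682), while Nrf1 had 0.10 ± 0.08.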

How the data were processed

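Whole lung mRNA, selected with oligo(dT) beads, was sequenced as stranded read pairs per the labels' protocols. Per the submitters' processing notes, the GRCm38 build was used with edgeR, DESeq2, StringTie 1.3.4d, HISAT2 2.0.4 and cutadapt 1.9, in roles not stated. For each gene and library the authors deposited raw counts and FPKM (scaled to transcript length and library size), per the file headers. The length used for each gene was not checked, so FPKM of different genes are compared with caution. Which tool counted the reads, with which strand setting and annotation, is not stated. Gene positions come from GENCODE M21 (GRCm38) by Ensembl ID, found for all 108 members.

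In edgeR 4.0.16 (R 4.3.3) the counts passed filterByExpr, were TMM-scaled and were fitted with 1 mean per group over the 12 libraries. Benjamini-Hochberg adjustment ran over all 22915 genes tested. Each SE is the log2 fold change divided by the square root of F. Levels are deposited FPKM as mean ± SD, n = 3. Statements that groups overlap or not refer to the FPKM printed, and counts of genes that do not overlap to TMM-normalised counts. Summed levels were given no test. Alternatives were DESeq2 1.42.0, limma 3.58.1 on log2(FPKM + 1) and log2(FPKM + 0.1), other scalings, no filter, the 6 libraries compared, a replicate block and each library left out. The code was tested on simulated data.

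The same replicate number in different groups did not pair libraries (18 pairs, correlation of group-centred values -0.108 to 0.104, 4 of 12 libraries closest to one of their own number), so the test has no block. Members, lists and tests were chosen with earlier results of these data known, and the pericyte list and the strict reading of the transcript type after seeing the data. Named genes are the 13 mitochondrially encoded ones, the isoform pairs, up to 5 largest rises and falls called among nuclear members per comparison with at least 1 FPKM, and up to 4 members per list by p in ALI against Control. Other genes named were chosen after their values were seen. Symbol matches of 16 pseudogenes and noncoding RNAs were left out. Reads from such copies could be counted to a member, and reads of a member to a copy. Ndufa12-ps, for example, held 10200 counts over the 12 libraries, against 7526 for Ndufa12.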

Additional observations from a re-analysis of the deposited data

How the results depend on the processing

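Of 252 pairs of a named member and a comparison, the 44 called kept their direction under all 21 alternatives. Of the 208 not called, 59 turned sign under at least 1, with a fold change of at most 0.30 (log2) in size in the test reported. Leaving out 1 library kept 2891 of the values on their side of the threshold, moved 29 past it and lost 104, and the other settings kept 2193, moved 40 past it and lost 35. The cause of the shifts was not tested.

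Nuclear counts called (main ALI against Control 15, MSC against ALI 2, tpMSC against ALI 9, tpMSC against MSC 0, MSC against Control 4, tpMSC against Control 3) were as follows where they moved. With the 6 libraries compared alone they were 25 in ALI against Control, 0 in MSC against ALI, 2 in MSC against Control and 13 in tpMSC against Control. DESeq2 gave 4 for MSC against ALI, 2 for tpMSC against MSC and 9 for tpMSC against Control, and no filter gave 2 for MSC against Control. With members of the sole type protein coding, which are fewer genes, they were 6, 0, 3, 0, 1 and 1 in the order first given. Leaving out 1 library gave 11 to 20, 0 to 3, 4 to 13, 0 to 1, 1 to 4 and 0 to 11 in the order first given.

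Mitochondrial counts (6, 0, 2, 0, 3 and 0) became 2 for ALI against Control and 0 for MSC against Control in limma with either pseudocount. For tpMSC against ALI they became 4 with DESeq2, 4 with library totals, 0 with limma on log2(FPKM + 1) and 1 on log2(FPKM + 0.1). Leaving out 1 library gave 4 to 7, 0 to 0, 1 to 4, 0 to 0, 1 to 5 and 0 to 0.

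Over all genes, MSC against ALI (2347) became 3604 with DESeq2 and 1221 with 6 libraries. The count for tpMSC against MSC (7) became 4 with RLE factors, 670 with DESeq2, 13 with limma on log2(FPKM + 0.1), and 0 without a filter, with 6 libraries and with the replicate block. Leaving out 1 library gave 7456 to 9460, 1084 to 2930, 3399 to 5800, 0 to 386, 2465 to 4751 and 1830 to 4247. With the replicate block 22, 3, 11, 0, 7 and 2 members were called, against 21, 2, 11, 0, 7 and 3. At 3 libraries a group, the median SE of nuclear members was 0.11 on the log2 scale, so differences near that size were not detectable.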
